A study of Mus musculus with 6 samples.

Results

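The Myc network is a family of transcription factors that pair with one another to bind DNA, and 10 of its genes were followed here: Myc, Mycn, Mycl1, Max, Mxd1, Mxd3, Mxd4, Mxi1, Mnt and Mlx. They were chosen by gene symbol from the 53445 loci of the deposited table, and each symbol had 1 locus. LSK cells, the Lin-Sca+Kit+ bone marrow fraction that holds hematopoietic stem cells and early progenitors, were profiled by RNA-Seq in 6 libraries, 3 of OgaVav-Cre and 3 of wildtype, and each library stands for 1 mouse. All mice were females of about 12 weeks on the C57BL/6 background, and at least 20000 cells were sorted per mouse. The comparison asks whether transcripts changed in LSK cells that had lost Oga, which encodes the enzyme that removes O-GlcNAc, a single sugar that marks nuclear and cytoplasmic proteins. OgaVav-Cre mice carry 2 floxed alleles of Oga and the Vav-iCre transgene, whose Vav elements drive Cre throughout the blood lineage and not only in LSK cells. The controls are labelled wildtype, and whether they carry a floxed allele or Cre is not given in the sources used here.

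Proteins of the network hold a basic region that contacts DNA, followed by a helix-loop-helix and a leucine zipper through which they pair. Myc, Mycn and Mycl1 bind the E-box CACGTG only as partners of Max, recruit histone acetyltransferases and drive genes of ribosome production, nucleotide synthesis and growth. Mxd1, Mxd3, Mxd4, Mxi1 and Mnt compete for Max and bring Sin3 corepressors to the same sites, while Mlx, a relative of Max, pairs with the glucose-sensing factors MondoA (Mlxip) and ChREBP (Mlxipl) and with some Mxd proteins. In hematopoietic stem cells, Myc and Mycn act together in survival and in the balance of self-renewal and differentiation, and Mxd1 accompanies differentiation and the exit from the cell cycle. MYC protein is itself modified by O-GlcNAc, which RNA levels do not measure.

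The DNA contact is written in the coding sequence, which was read for the members other than Myc. The 27 bases that encode the part of the basic region next to the first helix were read from mm9 transcripts on the coding strand, with the codons for the histidine, glutamate and arginine that touch the E-box in capitals. The search for the stretch required these residues, so their presence in every line is no result. The first line is Max, followed by the Myc family members Mycn and Mycl1, the repressors Mxd1 and Mnt, and Mlx.
Max: CATaatgcactgGAAcgaaaacgtAGG
Mycn: CACaacatcctgGAGcgtcaacgcCGG
Mycl1: CATaacttcttgGAAcgaaaaaggAGG
Mxd1: CACaatgaaatgGAAaagaacaggCGT
Mnt: CACaacaaattgGAGaagaacaggAGG
Mlx: CACactcaggctGAAcagaagagaAGG
They lie at chr12:78054219-78054245 (minus strand) in Max, chr12:12944025-12944051 (minus) in Mycn, chr4:122677519-122677545 (plus) in Mycl1 and chr11:100949980-100950006 (plus) in Mlx, each within 1 coding exon. In Mxd1 (chr6:86603190-86613087, minus) and Mnt (chr11:74650952-74651117, plus) an intron splits the stretch, as it does in Mxd3, Mxd4 and Mxi1. Of the 27 bases, Mycl1 shared 20 with Max, Mycn 17, Mxd1 and Mxi1 16 each, Mnt 15, Mxd4 and Mlx 14 each and Mxd3 13.

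The E-box also stands in the promoters of some members. In RefSeq windows of GRCm38.p6 that run from 250 bases before to 50 bases after each start, CACGTG (which reads alike on both strands) was found in 4 of the 9 members matched, namely Max, Mxd4, Mnt and Mlx, and in 4 of their 11 windows. The same letters were found in 7.15% of the 32851 windows of all genes and in 8.09% of 27025 genes. No window was matched for Myc, and Mycl1 is listed there as Mycl. For the 4 promoters, 100 bases are shown 5′ to 3′ on the strand of the gene, with the E-box in capitals.
Max: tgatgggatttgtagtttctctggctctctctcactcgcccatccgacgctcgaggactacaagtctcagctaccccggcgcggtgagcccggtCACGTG
Mxd4: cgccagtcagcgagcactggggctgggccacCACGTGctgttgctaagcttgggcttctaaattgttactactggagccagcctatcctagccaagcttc
Mnt: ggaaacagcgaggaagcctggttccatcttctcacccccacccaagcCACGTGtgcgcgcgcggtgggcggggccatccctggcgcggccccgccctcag
Mlx: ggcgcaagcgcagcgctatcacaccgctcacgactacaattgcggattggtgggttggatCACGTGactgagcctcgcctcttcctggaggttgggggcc
The E-box begins 3 bases before the start of Max (chr12:76962246-76962345, minus), 219 before that of Mxd4 (chr5:34187861-34187960, minus), 123 before that of Mnt (chr11:74830754-74830853, plus) and 40 before that of Mlx (chr11:101087190-101087289, plus). A match of letters describes the window and shows no binding.

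The 6 libraries held 19318056 to 27064389 reads on loci. Mgea5, the symbol under which the table lists Oga, was at 4.01 to 4.61 CPM in the OgaVav-Cre libraries and at 116 to 154 CPM in the wildtype libraries. CPM are read counts divided by the size of the library, which was scaled between libraries by the trimmed mean of M-values (TMM). The LSK markers Kit (251 to 602 CPM) and Ly6a, which encodes Sca-1 (42.3 to 218 CPM), were found in every library. Markers that the lineage antibodies should remove were found too. The summed level of 6 B lineage markers was 211 to 1021 CPM in OgaVav-Cre and 179.9 to 712 CPM in wildtype, that of 4 T lineage markers 16.2 to 108 and 15.9 to 27.4 CPM, that of 9 LSK markers 1073 to 2302 and 1422 to 2517 CPM, and that of 7 plasma cell markers, which include Ighm and Igj, 9097 to 87333 and 9438 to 40729 CPM. Of all these markers, none was at 0 in any library. The summed level of 5 myeloid markers was 406 to 605 CPM in OgaVav-Cre and 474 to 830 CPM in wildtype. That of 4 erythroid and megakaryocytic markers was 75.6 to 655 and 121 to 188 CPM. The myeloid marker Ly6g had 0 reads in wildtype replicate 1. Ighm, Igj and Igkc took 1.17 to 9.88% of the reads of a library. Since whole sorted populations were sequenced, fewer cells of a type and less RNA per cell cannot be told apart.

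No member of the network passed the test between the genotypes. By edgeR, 0 of the 10 members passed an adjusted p of 0.05 with a log2 fold change beyond 1, against 7 of 22032 loci tested (0.0318%), of which 1 was higher (0.00454%) and 6 were lower (0.0272%) in OgaVav-Cre. By the DESeq2 Wald test, the tool of the study, 0 of the 10 members were called as well, against 116 of 22307 loci with an adjusted p (0.52%), 35 higher and 81 lower. At an unadjusted p of 0.05 the edgeR count was also 0 of 10, against 10.6% of loci (4.38% higher and 6.27% lower), and DESeq2 and limma-voom also gave 0 members at this threshold. The 3 libraries of one genotype overlapped the 3 of the other for all 10 members, while they did not overlap for 17.5% of loci. All 10 members passed the filter on low counts. Adjusted p-values of the members ran from 0.670 to 0.995 (edgeR). The median log2 fold change of OgaVav-Cre over wildtype was 0.10 for the members and 0.0041 for all loci tested.

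**Figure D1:**
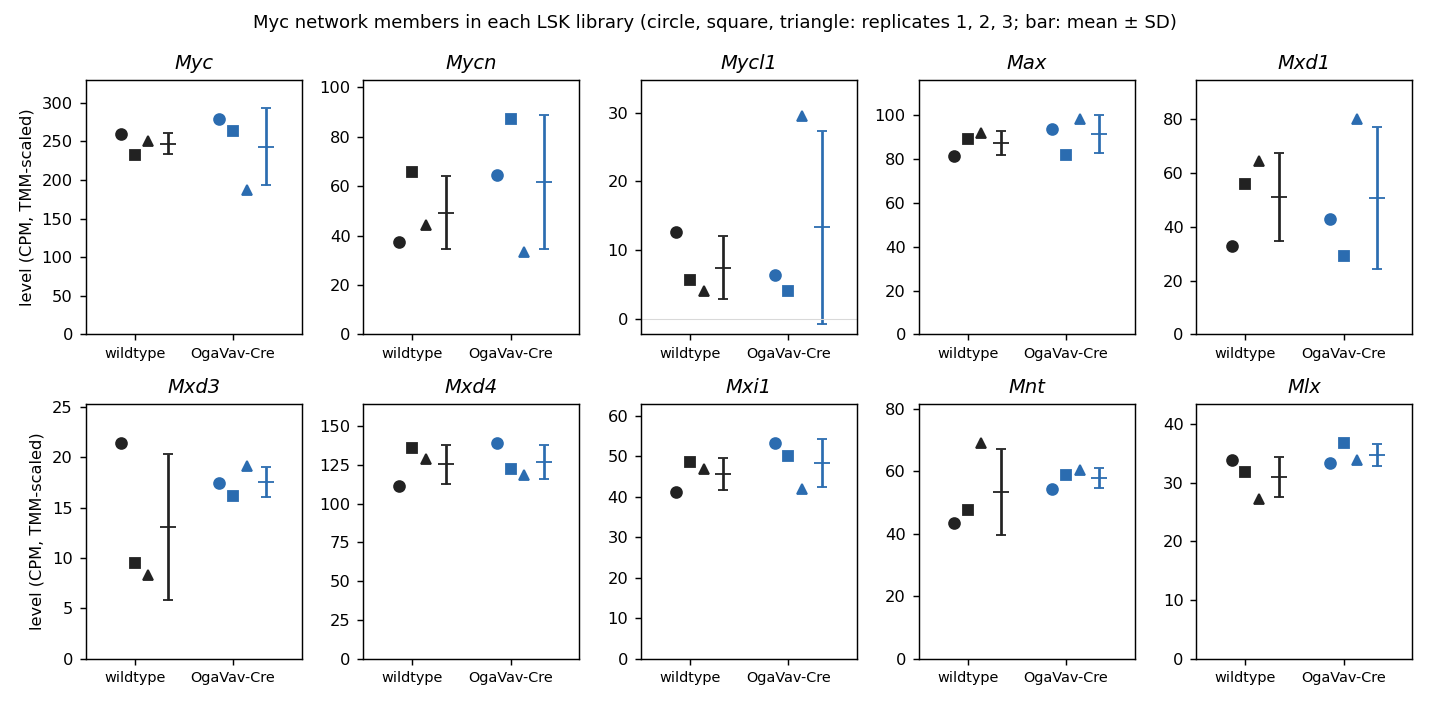
Level of each Myc network member in CPM (TMM-scaled, linear axis) in every wildtype (black) and OgaVav-Cre (blue) library; symbols mark the replicate and bars the mean ± SD of 3 mice. The genotypes overlap in all 10 panels, and in that of Mycl1 OgaVav-Cre replicate 3 stands apart at 29.5 CPM.

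Among the Myc family members, Myc (chr15:61816896-61821929, plus strand, in mm9 as are all locus positions below) was the most abundant and the steadiest of them between mice. It stood at 279, 263 and 187 CPM in OgaVav-Cre replicates 1, 2 and 3 and at 259, 232 and 250 CPM in wildtype replicates 1, 2 and 3. The wildtype values fell within the range of the OgaVav-Cre values, whose replicate 3 was the lowest of all 6. The ratio of OgaVav-Cre to wildtype was 0.984 with a 95% interval of 0.747 to 1.30 (log2 fold change −0.02, SE 0.17, edgeR adjusted p = 0.972). Leaving out OgaVav-Cre replicate 3 turned the sign, to a log2 fold change of 0.14.

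Mycn (chr12:12942899-12948720, minus strand), which overlaps Myc in function in stem cells, varied more from mouse to mouse. Its levels were 64.3, 87.4 and 33.3 CPM in OgaVav-Cre replicates 1 to 3 and 37.5, 65.9 and 44.4 CPM in wildtype replicates 1 to 3. Both the highest and the lowest library were OgaVav-Cre. The log2 fold change was 0.32 (SE 0.35, 95% interval −0.49 to 1.14, edgeR adjusted p = 0.751). It was −0.02 without OgaVav-Cre replicate 2 and 0.63 without replicate 3, the latter with an unadjusted p of 0.039 and an adjusted p of 0.329 (edgeR), the lowest of 16 alternatives that ran up to 0.992. The 3 libraries highest in Mycn (OgaVav-Cre 1 and 2 and wildtype 2) were also the 3 with the highest summed LSK markers, at 2025, 2302 and 2517 CPM against 1073 to 1816 CPM in the others, and the 3 with the lowest summed B lineage markers, at 268, 211 and 179.9 CPM against 550.5 to 1021 CPM. The same 3 libraries also had the highest summed plasma cell markers, at 87333, 32985 and 40729 CPM against 9097 to 14968 CPM. With the immunoglobulin share of each library as a covariate, the log2 fold change of Mycn was 0.11 (edgeR). The part of cell composition in the spread of Mycn was not tested.

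Mycl1 (chr4:122672895-122679728, plus strand), the family member least often linked to blood stem cells, was the scarcest and the most variable. It had 144, 103 and 808 reads in OgaVav-Cre replicates 1 to 3 and 270, 108 and 96 reads in wildtype replicates 1 to 3, which correspond to 6.39, 4.08 and 29.5 CPM and to 12.7, 5.60 and 4.06 CPM. A single library, OgaVav-Cre replicate 3, stood above the rest, and the other OgaVav-Cre libraries lay within the wildtype range. The log2 fold change of 0.84 (SE 0.75, 95% interval −0.90 to 2.59, edgeR adjusted p = 0.693) became −0.51 without that library. OgaVav-Cre replicate 3 also had the highest summed T lineage markers, at 108 CPM against 15.9 to 27.4 CPM in the other libraries, the highest B lineage markers and the lowest LSK markers. Each of the 4 T lineage genes (Cd3e, Cd3g, Cd4 and Cd8a) was highest in it, and Cd4 alone was at 72.7 CPM. The summed erythroid and megakaryocytic markers were highest in it as well, at 655 CPM against 75.6 to 207 CPM in the other libraries. Most of that sum was the globin gene Hbb-b1, at 630 CPM. The part of any of these cell types in the level of Mycl1 was not tested.

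Max (chr12:78038256-78063235, minus strand), the shared partner of the Myc and Mxd proteins, was among the steadiest members. It stood at 93.8, 81.9 and 98.5 CPM in OgaVav-Cre replicates 1 to 3 and at 81.3, 89.4 and 91.8 CPM in wildtype replicates 1 to 3. All 6 libraries lay close together, with the genotypes interleaved. The OgaVav-Cre to wildtype ratio was 1.04, with a 95% interval of 0.862 to 1.27 (edgeR adjusted p = 0.868). On the RPKM scale, which scales reads to the length of the locus and the size of the library, the log2 difference of Max was −0.01 in place of 0.06.

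Mlx (chr11:100948591-100955417, plus strand) was likewise narrow, at 33.4, 36.8 and 33.9 CPM in the OgaVav-Cre libraries and 33.9, 31.9 and 27.2 CPM in wildtype replicates 1 to 3. The lowest 2 libraries were wildtype, but wildtype replicate 1 fell among the OgaVav-Cre libraries. Its log2 fold change was 0.16 (SE 0.14, 95% interval −0.15 to 0.48, edgeR adjusted p = 0.670) and stayed positive in all 16 alternative fits. Mlx overlaps Psmc3ip on the opposite strand over 2281 bases of its span, and whether the counting used strand is not given, so reads of the overlap cannot be assigned to 1 of the genes here.

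Of the 5 repressors, Mxd4 and Mxi1 were the most even. Mxd4 (chr5:34516536-34530369, minus strand), found in many tissues, stood at 139, 122 and 119 CPM in the OgaVav-Cre libraries and 112, 136 and 129 CPM in wildtype replicates 1 to 3. Mxi1 (chr19:53384996-53450300, plus strand), also called Mxd2, stood at 53.3, 50.2 and 41.8 CPM and at 41.3, 48.7 and 46.8 CPM. For both genes, the lowest wildtype and the highest OgaVav-Cre values came from replicate 1, and the ranges of the genotypes lay largely on top of each other. The 95% interval of the OgaVav-Cre to wildtype ratio was 0.821 to 1.24 for Mxd4 (edgeR adjusted p = 0.975) and 0.852 to 1.32 for Mxi1 (edgeR adjusted p = 0.838).

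Mnt (chr11:74644422-74659227, plus strand), the broadly expressed antagonist of Myc, stood at 54.5, 58.7 and 60.5 CPM in the OgaVav-Cre libraries and at 43.3, 47.6 and 69.1 CPM in wildtype replicates 1 to 3. The OgaVav-Cre libraries lay between the second and the highest wildtype library. The log2 fold change was 0.12 (SE 0.18, edgeR adjusted p = 0.837), −0.01 without wildtype replicate 1 and 0.35 without wildtype replicate 3, the latter with an unadjusted p of 0.041 and an adjusted p of 0.862 (edgeR), where 16 alternatives ran from 0.687 to 0.985.

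Mxd1 (chr6:86597038-86619153, minus strand), known for its rise as myeloid cells mature, ranged over 2.75-fold among the OgaVav-Cre libraries (43.0, 29.2 and 80.2 CPM) and 1.95-fold among the wildtype libraries (32.9, 56.0 and 64.4 CPM). Its extremes, OgaVav-Cre replicates 2 and 3, were of the same genotype. The log2 fold change was −0.01 (SE 0.38, edgeR adjusted p = 0.995), with a 95% interval of −0.90 to 0.88. A difference of up to about 0.9 on the log2 scale in either direction was thus not excluded. The sign turned in 7 of 16 alternative fits.

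Mxd3 (chr13:55426529-55431119, minus strand) is known as the Mxd gene that is expressed in S phase rather than on cell cycle exit. It stood at 17.4, 16.1 and 19.1 CPM in the OgaVav-Cre libraries and at 21.4, 9.54 and 8.29 CPM in wildtype replicates 1 to 3. The OgaVav-Cre libraries were close together, and the wildtype libraries fell on both sides of them, with replicate 1 above and replicates 2 and 3 below. The log2 fold change was 0.42 (SE 0.35, 95% interval −0.39 to 1.23, edgeR adjusted p = 0.670). Without wildtype replicate 1 it was 0.98, with an unadjusted p of 0.0014 and an adjusted p of 0.196 (edgeR), the lowest of 16 alternatives that ran up to 0.945, and without wildtype replicate 3 it was 0.18. The summed level of 14 proliferation genes took the same shape, at 2022, 2088 and 2241 CPM in the OgaVav-Cre libraries and 3114, 1253 and 1527 CPM in wildtype replicates 1 to 3. Wildtype replicate 1 was highest and wildtype replicates 2 and 3 were lowest in both. The part of proliferation in the level of Mxd3 was not tested. The locus overlaps Prelid1 on the opposite strand by 105 bases.

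**Figure D2:**
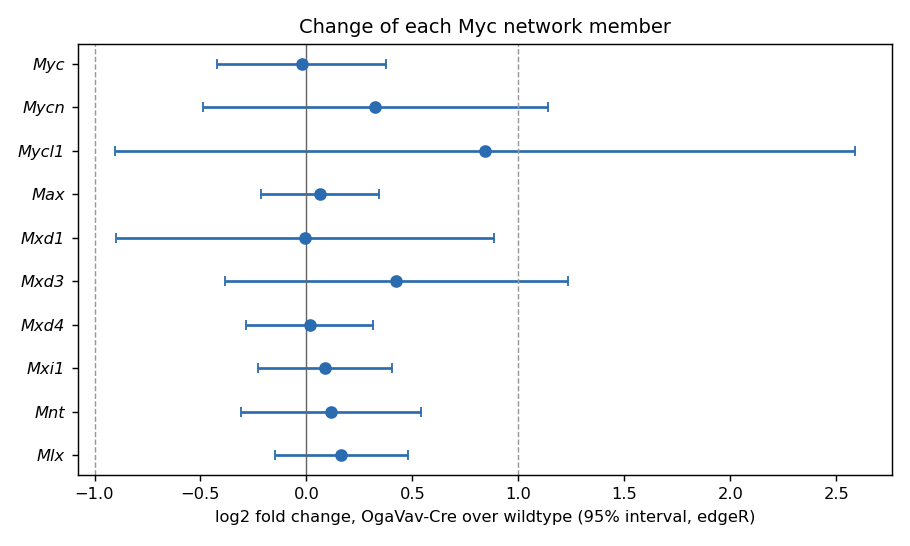
Log2 fold change of OgaVav-Cre over wildtype for each member, with its 95% interval from edgeR (3 mice a genotype); the dashed lines mark −1 and 1. All 10 intervals include 0, 7 of 10 lie between −1 and 1, and those of Mycn, Mycl1 and Mxd3 reach beyond 1.

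The intervals set what these 6 libraries could show. For 7 of the 10 members the 95% interval lay within 1 on the log2 scale on either side, and for 6 of them (Myc, Max, Mxd4, Mxi1, Mnt and Mlx) within 0.6. The members with wider intervals varied more between mice. The SD of log2 CPM within a genotype was 1.15 for Mycl1, 0.626 for Mxd1, 0.578 for Mycn and 0.510 for Mxd3, against 0.117 for Max, 0.124 for Mlx and 0.134 for Mxd4. Among loci whose mean CPM lay within 2-fold, 97.3% had a smaller spread than Mycl1, 96.3% than Mxd1, 95.8% than Mycn 89.1% than Mxd3, 76.4% than Mnt and 70.7% than Myc. The share was 37.2% for Mxi1, 31.0% for Mxd4, 23.3% for Max and 20.2% for Mlx. Thus 6 members varied more between mice than most loci of their level, and Max, Mlx, Mxd4 and Mxi1 varied less. The spread is a description of these 6 libraries.

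**Figure D3:**
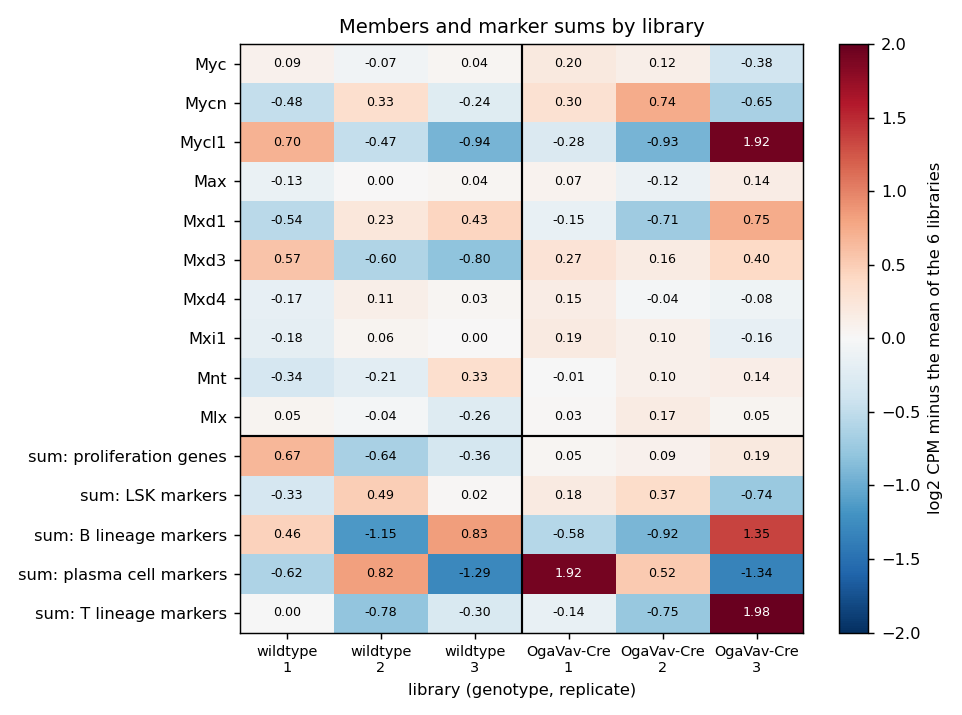
Log2 CPM of each member (upper rows) and of summed marker and proliferation genes (lower rows) in each library, minus the mean of the 6 libraries; red is above and blue below that mean. Mycl1 is at 1.92 and the T lineage sum at 1.98 in OgaVav-Cre replicate 3, and Mxd3 follows the sign of the proliferation sum in every library.

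Compared per length in RPKM, the members spanned a wide range within LSK cells. In wildtype, Myc was highest at 79.7 ± 6.13 RPKM (SD, n = 3), followed by Max at 23.8 ± 1.69, Mxd4 at 13.9 ± 1.28, Mycn at 13.3 ± 3.67 and Mnt at 10.3 ± 2.89 RPKM. Below these came Mlx at 6.91 ± 0.685, Mxi1 at 6.50 ± 0.511, Mxd1 at 6.49 ± 2.11, Mxd3 at 5.61 ± 3.13 and Mycl1 at 1.64 ± 1.02 RPKM. In OgaVav-Cre the mean was 74.4 ± 12.8 RPKM for Myc, 23.8 ± 2.54 for Max, 15.9 ± 7.06 for Mycn and 2.86 ± 3.11 for Mycl1. Myc stood above Max, Max above Mxd4, Mnt above Mlx and Mxd3 above Mycl1 in all 6 libraries. The other neighbours in this order did not differ beyond their spread, since their ranges overlapped in both genotypes: Mxd4 and Mycn, Mycn and Mnt, Mlx and Mxi1, Mxi1 and Mxd1, and Mxd1 and Mxd3.

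**Figure D4:**
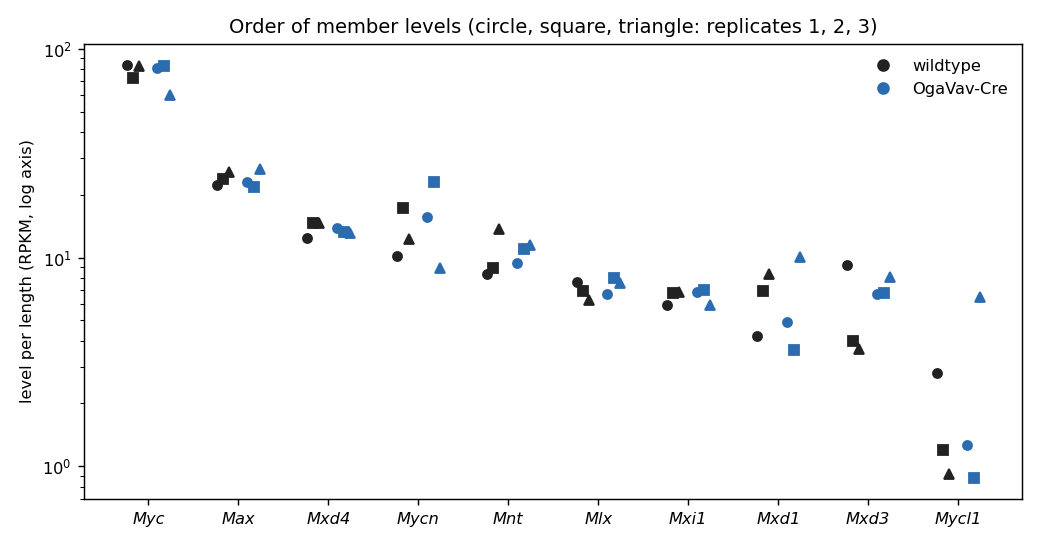
Level per length (RPKM, log axis) of each member in every library, ordered by the wildtype mean; black is wildtype, blue is OgaVav-Cre, and symbols mark the replicate. Myc lies at 59.7 to 83.8 RPKM, above Max at 21.7 to 26.6 RPKM, and Mycl1 has the lowest mean in both genotypes, with OgaVav-Cre replicate 3 (6.45 RPKM) among the values of the other genes.

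The balance between the arms of the network was compared as ratios of summed RPKM, given without a test. The summed Myc family (Myc, Mycn and Mycl1) over Max was 4.26, 4.90 and 2.82 in OgaVav-Cre and 4.35, 3.85 and 3.74 in wildtype replicates 1 to 3. The summed repressors (Mxd1, Mxd3, Mxd4, Mxi1 and Mnt) over Max were far more even, at 1.82, 1.91 and 1.83 in OgaVav-Cre and 1.80, 1.74 and 1.84 in wildtype. The genotypes overlapped in both ratios, for the repressors in RPKM through wildtype replicate 3 alone. Summed in CPM instead, the repressors over Max were 3.27, 3.38 and 3.25 in OgaVav-Cre and 3.08, 3.33 and 3.45 in wildtype replicates 1 to 3. On that scale the wildtype libraries fell below, within and above the OgaVav-Cre range. OgaVav-Cre replicate 3 had the lowest Myc family ratio. Myc family over repressors was 2.34, 2.56 and 1.54 in OgaVav-Cre and 2.41, 2.21 and 2.03 in wildtype, which also overlapped.

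Within the Myc family, Myc made up 82.7, 77.6 and 79.5% of the summed RPKM in OgaVav-Cre and 86.6, 79.7 and 86.2% in wildtype replicates 1 to 3. Mycl1 contributed 0.822 to 2.90% in all libraries but OgaVav-Cre replicate 3, where its share was 8.60%. Among the repressors Mxd4 was the largest contributor, with 33.3, 31.9 and 26.8% in OgaVav-Cre and 31.0, 35.6 and 31.1% in wildtype. Mxd1 took 8.69 to 20.7% and Mxd3 7.72 to 22.9% of the repressor sum over the 6 libraries, so that the even sum of the repressors was made up of uneven parts.

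The partners outside the 10 genes were also examined. Mlxip (MondoA) stood at 117, 103 and 153 CPM in the OgaVav-Cre libraries and at 125, 135 and 166 CPM in wildtype replicates 1 to 3, with overlap (log2 fold change −0.20, edgeR adjusted p = 0.707). Mlxipl (ChREBP) had 0 to 4 reads per library and was not tested. Mga, which pairs with Max in a polycomb complex, stood at 141, 172 and 161 CPM in the OgaVav-Cre libraries and at 185, 183 and 181 CPM in wildtype. All 3 OgaVav-Cre libraries were below all 3 wildtype libraries, as was the case for 9.97% of loci, and the log2 fold change of −0.21 (SE 0.12) did not pass the test (edgeR adjusted p = 0.553). Of the targets of MondoA and Mlx, Txnip, which restrains glucose uptake, stood at 575, 583 and 681 CPM in the OgaVav-Cre libraries and 479, 818 and 752 CPM in wildtype (log2 fold change −0.16, edgeR adjusted p = 0.806). Its relative Arrdc4 stood at 30.0, 26.0 and 25.9 CPM against 31.3, 34.9 and 47.4 CPM, without overlap, and did not pass the test (log2 fold change −0.47, SE 0.18, unadjusted p = 0.032, edgeR adjusted p = 0.445).

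The cofactors through which the members act were also not called. Over all loci tested by edgeR, 0.0318% were called, 10.6% had an unadjusted p below 0.05 and 50.5% had a positive log2 fold change. At so low a share of calls, 0 called in a short list says little about its genes. Of 13 coactivator genes, 10 had higher and 3 had lower fitted levels in OgaVav-Cre, with 0 called and 0 at an unadjusted p of 0.05 by edgeR and a median log2 fold change of 0.05. The ATPase Ruvbl1 of the Tip60 complex had the smallest p among them (log2 fold change 0.28, SE 0.15, edgeR adjusted p = 0.529), followed by its partner Ruvbl2 (0.29) and the actin-like subunit Actl6a (0.27). Of 9 Sin3 and Ncor corepressor genes, 6 had higher and 3 lower fitted levels, 0 were called and 0 had an unadjusted p of 0.05 by edgeR, with a median of 0.11. Those with the smallest p were the histone-binding Rbbp7 (0.26) and Rbbp4 (0.19) and the scaffold Sin3b (−0.12). Of 10 genes of MYC protein turnover, 6 had higher and 4 lower fitted levels, and again 0 were called and 0 had an unadjusted p of 0.05 by edgeR (median 0.10). Among them the ubiquitin ligase subunit Skp2 was at −0.25 and the kinase Aurka at 0.36. DESeq2 and limma-voom called 0 genes of these lists as well.

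Most genes known to be activated by Myc had a higher fitted level in OgaVav-Cre, but 1 alone was called. Of 36 such genes, 32 had a positive and 4 a negative log2 fold change, while 50.5% of all loci tested had a positive one, and the median was 0.27 against 0.0041 for all loci. The 1 called gene was the glutamine transporter Slc1a5, which the study had singled out on these libraries and which is therefore no independent evidence for the list. Without it the median over 35 genes was 0.27, and 9 of the 35 were higher at an unadjusted p of 0.05 by edgeR. The list as a whole was chosen with earlier results of these data known, so its counts are a description and no independent test. With Slc1a5 included, at an unadjusted p of 0.05, 10 of the 36 genes (27.8%) were higher and 0 lower by edgeR, while 4.38% of all loci were higher, and the genotypes did not overlap for 9 of the 36, all higher, against 7.5% of loci.

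Slc1a5 stood at 95.9, 119 and 90.5 CPM in the OgaVav-Cre libraries and at 31.0, 29.5 and 39.9 CPM in wildtype replicates 1 to 3. No wildtype library reached the lowest OgaVav-Cre library, and the log2 fold change was 1.60 (SE 0.17, edgeR adjusted p = 0.0466). This call was lost in 11 of 16 alternative fits, where adjusted p-values reached 0.227 and log2 fold changes lay between 1.42 and 1.75. The study also reported higher Slc1a5 by quantitative PCR, run on its RNA-Seq cDNA libraries. Slc7a5, a transporter of large neutral amino acids, stood at 126, 103 and 86.5 CPM against 74.0, 59.3 and 55.5 CPM, also without overlap (log2 fold change 0.74, SE 0.18, edgeR adjusted p = 0.384). Fbl, the methyltransferase of ribosomal RNA, stood at 7.58, 7.20 and 7.55 CPM against 4.97, 4.25 and 3.60 CPM, again without overlap (log2 fold change 0.80, SE 0.22, edgeR adjusted p = 0.410). Neither Slc7a5 nor Fbl passed the adjusted test.

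The other 7 genes at an unadjusted p of 0.05 were the polyamine enzyme Odc1 (log2 fold change 0.61), the nucleotide kinase Nme1 (0.55), the cyclin Ccnd2 (0.51), lactate dehydrogenase Ldha (0.46), the DNA repair enzyme Apex1 (0.42), and Nop58 (0.42) and Ncl (0.40) of the nucleolus, named after their values were seen. Their edgeR adjusted p-values ran from 0.412 to 0.460. Among the 4 genes of negative sign were Tert (−0.60), Ppan (−0.11) and Tfrc (−0.05).

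The size of this pattern depended on single libraries, although 29 to 34 of the 36 genes had a positive log2 fold change in all 16 alternative fits and the median ran from 0.20 to 0.43. The edgeR count at an unadjusted p of 0.05 rose from 10 to 23 without wildtype replicate 1, fell to 3 without wildtype replicate 3 and to 5 without OgaVav-Cre replicate 1 or replicate 2, and was 6 with the immunoglobulin share of each library as a covariate. The share of all loci that were higher at this p moved the same way, from 4.38% to 7.62% without wildtype replicate 1, 2.10% without wildtype replicate 3, 2.44% and 3.17% without OgaVav-Cre replicates 1 and 2, and 3.38% with the covariate. The proliferation genes differed between the same libraries. Of these 14 genes, 11 had higher and 3 lower fitted levels in OgaVav-Cre (median 0.17), with 0 called and 1 (Tyms, the thymidylate synthase, log2 fold change 0.52, unadjusted p = 0.046) at an unadjusted p of 0.05 by edgeR. Without wildtype replicate 1, 13 of the 14 genes (92.9%) were higher at an unadjusted p of 0.05 by edgeR and their median was 0.69. The median was −0.06 without wildtype replicate 2 and −0.05 without wildtype replicate 3. The replication genes Mcm5 (0.36) and Pcna (0.27) were next by p. The plasma cell markers also had higher fitted levels in OgaVav-Cre, in 7 of 7 genes with a median log2 fold change of 0.68, with 0 called and 0 at an unadjusted p of 0.05 by edgeR. Their sum was 87333, 32985 and 9097 CPM in the OgaVav-Cre libraries and 14968, 40729 and 9438 CPM in wildtype replicates 1 to 3, with overlap and with OgaVav-Cre replicate 1 the highest. How far proliferation or cell composition contributes to the Myc-activated list was not tested.

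**Figure D5:**
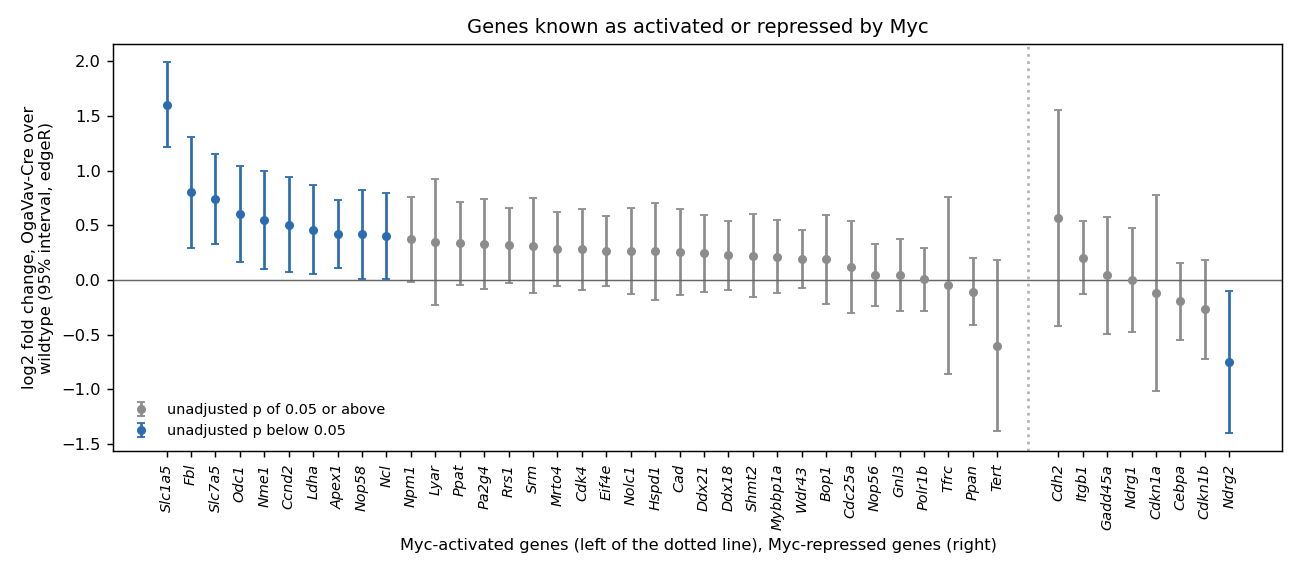
Log2 fold change of OgaVav-Cre over wildtype with its 95% interval (edgeR, 3 mice a genotype) for 35 of the 36 genes known to be activated and 8 known to be repressed by Myc; blue marks an unadjusted p below 0.05. Of the activated genes 32 lie above 0, with Slc1a5 at 1.60, and the repressed genes are split 4 and 4.

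Genes known to be repressed by Myc were split. Of 9 listed, 8 were tested, 4 with a higher and 4 with a lower fitted level in OgaVav-Cre, with 0 called by edgeR, DESeq2 or limma-voom and a median log2 fold change of −0.06. Over all loci tested, 0.0318% were called by edgeR. Ndrg2, which restrains growth, was the 1 gene at an unadjusted p of 0.05 by edgeR, while 6.27% of all loci were lower at this p. It stood at 4.12, 4.99 and 2.70 CPM in the OgaVav-Cre libraries and at 6.09, 6.38 and 7.36 CPM in wildtype replicates 1 to 3, without overlap. The same was true in this direction for 9.97% of loci. Ndrg2 did not pass the adjusted test (log2 fold change −0.75, SE 0.28, edgeR adjusted p = 0.441). The cyclin-dependent kinase inhibitor Cdkn1b was at −0.27 and the integrin Itgb1 at 0.21, both with overlapping genotypes.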

How the data were processed

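LSK cells were sorted from 3 OgaVav-Cre and 3 wildtype mice, grouped by the genotype in their labels. The authors sequenced poly(A) RNA as single-end reads, mapped these to mm9 and tallied each locus in Genomatix. CASAVA 1.8.2 is named in the submitters' processing notes, and the aligner, counting rule, annotation version and use of strand are not given in the sources used here. The deposited values used were counts (whole reads per locus) and RPKM, which the authors made from counts, locus length and 1 divisor per library. The authors' normalized expression (6 columns) and the columns of their own DESeq2 comparison (fold changes and p-values) were not used.

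The quasi-likelihood test of edgeR 4.0.16 (in R 4.3.3, with TMM and filterByExpr by genotype) was fitted to the counts over all 22032 loci that passed the filter, with Benjamini-Hochberg adjustment over all of them, after the script was tested on simulated data. Calls needed a log2 fold change beyond 1 besides an adjusted p under 0.05, and intervals are 95%. A single value of 3 mice against 3 cannot go below p = 0.1 in an exact permutation test, so p-values come from this fit. Each p-value sets the difference between genotypes against the spread between the libraries of single mice, estimated with information shared over all loci tested. Alternatives were other scaling, other filters, DESeq2 1.42.0, limma-voom and limma-trend on RPKM (limma 3.58.1; pseudocounts 0.1 and 1), a replicate block, each library left out and, chosen after seeing the data, the immunoglobulin share as a covariate. Sums of CPM over marker lists, and figures, were made in Python 3.11.15.

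The members and gene lists were chosen with earlier results of these data known. The genes named are the 10 members, 3 partners, Mgea5, Txnip and Arrdc4, in each other list the 3 with the smallest p, and the 3 loci (mean CPM above 1) nearest in profile to Myc and to Max. Further names are stated as such, and 2 genes of the lists, which are in the counts, are not reported here by name. Loci that overlap a member (Max, Mxd1, Mxd3, Mxi1 and Mlx) are listed separately and were kept as deposited. Sequences are from mm9 transcripts and RefSeq.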

Additional observations from a re-analysis of the deposited data

How the results depend on the processing

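In 16 alternative fits 0 members were called, and 141 of 160 member values kept their direction. The other 19 turned. Leaving out 1 library at a time gave ranges of −0.13 to 0.14 for Myc (0.14 without OgaVav-Cre replicate 3, 0.015 without wildtype 1), −0.016 to 0.63 for Mycn (lowest without OgaVav-Cre 2), −0.51 to 1.47 for Mycl1 (lowest without OgaVav-Cre 3), −0.061 to 0.081 for Mxd4 (below 0 without OgaVav-Cre 1 or wildtype 1), −0.010 to 0.35 for Mnt (lowest without wildtype 1) and −0.50 to 0.27 for Mxd1 (above 0 without OgaVav-Cre 1 or 2 or wildtype 2 or 3). On RPKM with pseudocounts 0.1 and 1, Max turned to −0.0078 and −0.0074 and Mxd4 to −0.052 and −0.049. Mxd1 was 0.0079 with DESeq2's size factors and 0.0096 by DESeq2. With the immunoglobulin share, Mxd1 was 0.097 and Mxd4 −0.054. The cause was not tested.

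Over all loci, 6 lower and 1 higher became 17 and 4 with no filter and 81 and 35 by DESeq2, and 3 to 6 and 0 to 3 when a library was left out. The higher count was 0 with at least 10 reads in every library, by limma-voom and on RPKM with either pseudocount, 2 with the immunoglobulin share and 2 with the replicate block. The 1 call in the Myc-activated list (Slc1a5) was 0 under the same filter, limma-voom, both RPKM fits, the immunoglobulin share and the replicate block, and 0 to 1 when a library was left out. Whether the replicate numbers pair the mice is not given in the sources used here. Deviations from the genotype means correlated at −0.089, 0.309 and 0.382 between the genotypes for replicates 1, 2 and 3. OgaVav-Cre replicates 2 and 3 correlated best with their own number and replicate 1 did not, which cannot decide whether the mice were paired. With the replicate block, 0 members were called. Each symbol had 1 locus, so summing loci was not run. Every member had at least 96 reads in each library, and the intervals of Mycl1, Mxd1, Mycn and Mxd3 were the widest.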

Other observations

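The loci whose profile over the 6 libraries was most like that of Myc were sought among 18960 loci, by the root-mean-square difference of log2 CPM after each was centred on its own mean. The nearest were Dhx35 (0.0567), Timm8b (0.0620) and Ubl4 (0.0627), against a range of 0.58 for Myc itself. Like Myc, all 3 were lowest in OgaVav-Cre replicate 3 and highest in OgaVav-Cre replicate 1, with Dhx35 at 14.9 and 23.8 CPM there. For Max, with a range of 0.28, the nearest were Tmem179b (0.0283), AK152883 (0.0390) and Mrpl53 (0.0392). These are descriptions over 6 libraries that were scaled together.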
